A study of Homo sapiens with 9 samples.

Results

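The genes described here serve protein folding in the endoplasmic reticulum (ER) and the unfolded protein response. They were 10 of the 60199 gene symbols in the count table and were chosen by symbol: HSPA5, HSP90B1, CALR, PDIA4, PDIA6, DNAJB9, SDF2L1, XBP1, HERPUD1 and ATF6. All 10 were among the 15717 genes with enough counts to be tested. RNA was sequenced from MCF10A, an established nonmalignant human mammary epithelial line, in 3 forms with 3 cultures each. CT was the parental line, grown without added BMP2 and IL6 and labelled not transformed. The medium that the authors give for MCF10A held horse serum, insulin, hydrocortisone, cholera toxin and EGF. MC26 was derived from unsorted MCF10A cells by prolonged exposure to the growth factor BMP2 and the cytokine IL6. M1B26 was derived with the same 2 factors, but from a fraction of MCF10A sorted for BMPR1B, a receptor of BMPs, and was expanded from 3 soft-agar clones. MC26 and M1B26 were both labelled transformed and both were grown in medium with BMP2 and IL6, so the effect of the factors in the medium and that of the derivation cannot be told apart. The authors describe no repeat derivation of a line. The p-values therefore measure the spread between cultures of a line and not between derivations. For M1B26 that spread may include differences between clones. The sample titles do not say whether the M1B26 libraries came from pooled or from separate clones. A library preparation batch was not given in the sources used here, and a batch that followed the lines could not be told apart from them.

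Total counts ranged from 21425118 to 80076597 per library, with the lowest in CT replicate 2. All 9 mammary epithelial markers were above 1 CPM (counts per 1000000 counts of the scaled library) in every library, with summed levels of 8824 to 11040 CPM in CT, 13390 to 16920 in MC26 and 9529 to 10050 in M1B26. The markers did not move alike, since mean levels in MC26 were above CT for KRT6A (6211 against 1948 CPM), KRT14 (1097 against 54.0 CPM), KRT17 and TP63, and below CT for KRT5, KRT8, KRT18, CDH1 and EPCAM (14.8 against 70.4 CPM). The leukocyte marker PTPRC had at most 2 counts in a library, CD3E had 0, and the sum of these and CD14, the 1 of the 3 above 1 CPM, ranged from 6.90 to 11.0 CPM in CT, from 9.72 to 17.8 in MC26 and from 33.8 to 47.9 in M1B26. Of 5 fibroblast markers 2 (COL1A1 and DCN) were above 1 CPM in every library, COL1A2 and PDGFRA were at or near 0, LUM had a mean of 5.11 CPM in M1B26 against 0.108 in CT, and the list summed to 36.7 to 37.0 CPM in CT, 16.7 to 55.9 in MC26 and 28.0 to 39.4 in M1B26. None of 3 endothelial markers was above 1 CPM in every library, with VWF and CDH5 at or near 0 and a sum, nearly all PECAM1, of 4.85 to 5.31 CPM in CT, 0.0994 to 0.541 in MC26 and 0.497 to 1.74 in M1B26. The part of these differences in the results below was not tested. CDKN2A, which is deleted in MCF10A, had 0 counts in all libraries. Of all counts, the CT libraries gave 0.314% ± 0.0166 to the 10 genes, the MC26 libraries 0.335% ± 0.0116 and the M1B26 libraries 0.316% ± 0.0138 (SD, n = 3).

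Secreted and membrane proteins fold in the ER with the help of chaperones and of enzymes that form disulfide bonds. When unfolded proteins accumulate there, the chaperone HSPA5 (BiP) is drawn away from sensor proteins in the ER membrane. The sensor IRE1 then splices the XBP1 mRNA, ATF6 moves to the Golgi and is cleaved into a transcription factor, and the kinase PERK slows translation and favours ATF4. XBP1 and cleaved ATF6 raise the transcription of chaperones and of the machinery that degrades misfolded proteins. In the mammary gland, XBP1 is known for its part in the secretory epithelium. Counts per gene hold neither the splicing of XBP1 nor the cleavage of ATF6, so the values below are mRNA levels only.

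Many genes of this response carry an ER stress element near their start, to which ATF6 and the factor NF-Y can bind. The RefSeq promoter windows on GRCh38.p14, from 250 bases before to 50 bases after each start, were searched on both strands for the ER stress element (ERSE, CCAAT and CCACG with 9 bases between them), the related ERSE-II (ATTGG and CCACG with 1 base between them) and the XBP1-type element (UPRE, TGACGTGG). ERSE and ERSE-II share the 5 bases CCACG, and ATTGG is the reverse complement of CCAAT. ERSE or ERSE-II was found for 7 of the 10 genes, against 44 of 27305 genes with a window (0.161%). ERSE was found for HSPA5, HSP90B1, CALR, PDIA6 and XBP1, and in 25 genes in all (0.092%). ERSE-II was found for SDF2L1 and HERPUD1, and in 19 genes in all (0.07%). The windows of PDIA4, DNAJB9 and ATF6 held neither, and the UPRE letters were in none of the windows of the 10 genes and in those of 253 genes in all (0.927%). A match of letters is a description and does not show that a factor bound. The 10 genes were chosen from the response in which these elements are known. Their share of matches is therefore no independent finding.

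The 7 stretches with a match are shown because they are the sequence feature that these genes share. Each runs 5′ to 3′ on the strand of its gene, with 20 bases on either side of the match, and the capitals mark the matched element. For HSP90B1 the stretch holds both of its matches, the second on the other strand, and the matches of CALR and SDF2L1 were also on the other strand.
HSPA5 (chr9:125241371-125241429, minus strand): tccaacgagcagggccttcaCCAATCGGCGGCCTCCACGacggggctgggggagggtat
HSP90B1 (chr12:103930196-103930359, plus strand): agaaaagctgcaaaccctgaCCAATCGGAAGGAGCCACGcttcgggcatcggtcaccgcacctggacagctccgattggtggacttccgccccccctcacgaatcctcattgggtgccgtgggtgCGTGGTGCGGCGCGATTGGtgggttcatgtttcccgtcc
CALR (chr19:12938364-12938422, plus strand): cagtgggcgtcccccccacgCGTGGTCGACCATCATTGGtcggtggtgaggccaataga
PDIA6 (chr2:10812833-10812891, minus strand): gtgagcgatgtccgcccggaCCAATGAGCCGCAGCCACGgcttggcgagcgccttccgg
XBP1 (chr22:28800583-28800641, minus strand): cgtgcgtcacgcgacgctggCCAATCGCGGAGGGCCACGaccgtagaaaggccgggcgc
SDF2L1 (chr22:21642094-21642144, plus strand): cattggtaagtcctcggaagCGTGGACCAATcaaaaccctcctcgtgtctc
HERPUD1 (chr16:56932005-56932055, plus strand): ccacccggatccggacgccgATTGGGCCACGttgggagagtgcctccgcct

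The matches lay between 225 and 34 bases before the start. The element of XBP1 was nearest, from 52 to 34 bases before the first of its starts. That of HSPA5 lay from 66 to 48 bases before the start, that of PDIA6 from 86 to 68 before the second of its starts, and that of HERPUD1 from 117 to 107. HSP90B1 was the only 1 of the 7 with a pair of matches. Only exact letters were counted in all windows, so an element that differed from them in any fixed base was not seen.

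**Figure D1:**
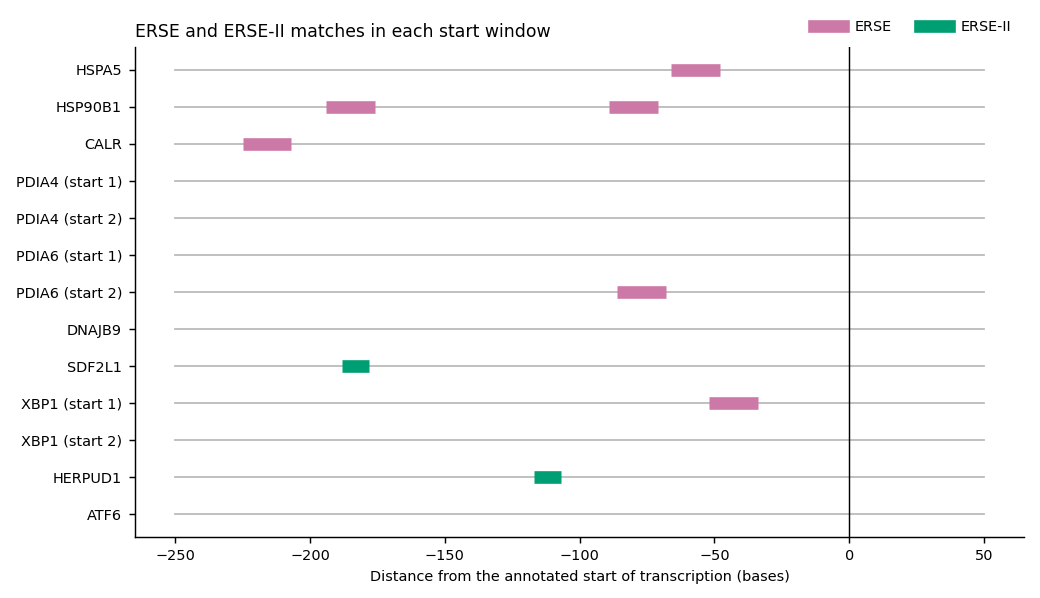
Position of each matched element (coloured bars, ERSE or ERSE-II on either strand) in the 13 promoter windows of the 10 genes (y axis), in bases from the transcription start (x axis, 0 at the start). All matches are upstream of the start, HSP90B1 carries 2, and PDIA4, DNAJB9 and ATF6 carry none.

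Levels between genes were compared as mean CPM per kilobase of transcript. In CT, CALR (340.0 CPM per kb) and HSP90B1 (322 CPM per kb) were highest and overlapped between libraries. HSPA5 followed at 172 CPM per kb, PDIA6 at 139.9 and PDIA4 at 89.8. XBP1 stood at 30.9 CPM per kb, SDF2L1 at 19.8, HERPUD1 at 14.8, ATF6 at 12.1 and DNAJB9 at 3.88, and of these neighbours SDF2L1 and HERPUD1 overlapped. The order differed in the derived lines at 2 places. In MC26, CALR (436 CPM per kb) and HSP90B1 (321 CPM per kb) no longer overlapped, and HERPUD1 (11.5 CPM per kb) overlapped with ATF6 (11.6 CPM per kb). In M1B26, SDF2L1 (40.7 CPM per kb) overlapped with XBP1 (39.0 CPM per kb). DNAJB9 was the lowest of the 10 in every line, and its level in CPM was above that of 39.2% of tested genes in CT, 43.8% in MC26 and 44.4% in M1B26.

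**Figure D2:**
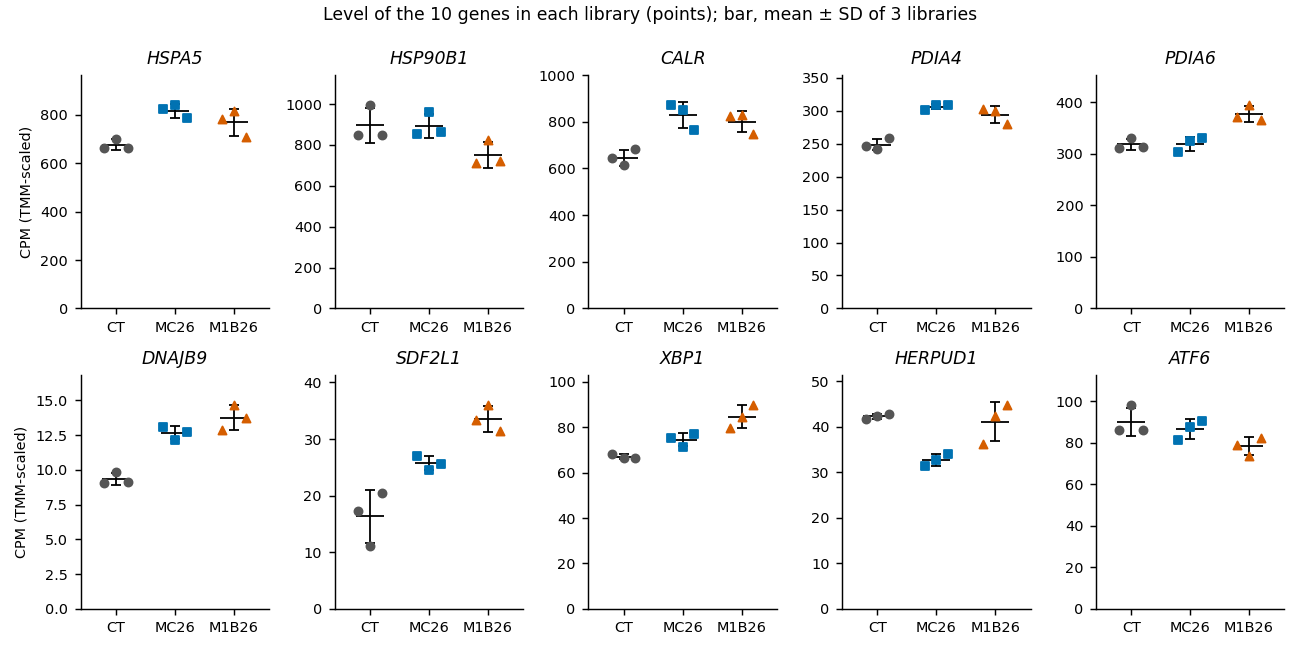
CPM on TMM-scaled totals (y axis) of each of the 10 genes in the 9 libraries, grouped by line (x axis). Points are libraries and bars are means ± SD of 3 cultures. SDF2L1, DNAJB9, CALR, PDIA4, HSPA5 and XBP1 lie above the CT libraries in every MC26 and M1B26 library, and HERPUD1 lies below them in every MC26 library.

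The first comparisons asked how the transformed lines differed from the parental line. In MC26 against CT, 6 of the 10 genes passed the test (edgeR quasi-likelihood, Benjamini-Hochberg adjusted p under 0.05 over all tested genes), 5 higher and 1 lower. Of all tested genes 38.7% passed in this comparison, 18.8% higher and 19.9% lower in MC26. In M1B26 against CT, 9 of the 10 passed, 7 higher and 2 lower. Of all tested genes 48.9% passed there, 25.2% higher and 23.7% lower in M1B26. Without any 1 library, the 9 became 6 to 8. In CT, HSPA5, HSP90B1, CALR, PDIA4 and PDIA6 were each above at least 95.9% of tested genes in level. The shares over all tested genes were not matched for level. Both comparisons share the CT libraries. The median log2 fold change of the 10 genes was 0.21 in MC26 and 0.24 in M1B26, against 0.0010 and 0.0019 over all tested genes. The libraries of the 2 lines did not overlap for 7 of the 10 genes in MC26 against CT, where 50.3% of all genes did not overlap, and for 9 of the 10 in M1B26 against CT, where 59% did not. Of the 7 genes with an ERSE or ERSE-II match, 4 passed in MC26 (3 higher, 1 lower) and 6 in M1B26 (5 higher, 1 lower). Of the 3 genes without one, 2 passed in MC26 (2 higher) and all 3 in M1B26 (2 higher, 1 lower). In M1B26 against MC26, 4 of the 7 passed and none of the 3. No test was run between these small sets.

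The scaling between libraries moved the split of higher and lower genes. With trimmed mean (TMM) scaling, 48.5% of the genes called between MC26 and CT were higher in MC26, and 51.5% of those called between M1B26 and CT were higher in M1B26. With total counts alone these shares were 35.8% and 39.6%, and the median of all genes was -0.08 and -0.09. The medians of the 10 genes then were 0.13 and 0.15.

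**Figure D3:**
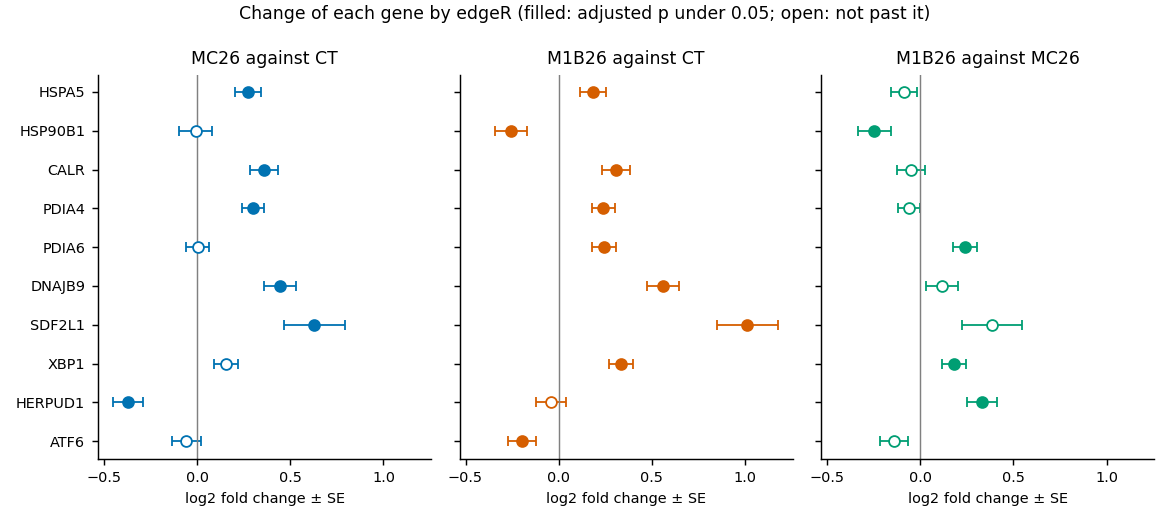
Log2 fold change with its standard error (x axis) of the 10 genes (y axis) for each derived line against CT and for M1B26 against MC26. Filled points passed an adjusted p of 0.05. SDF2L1 has the largest change against CT in both lines, and HERPUD1 is the gene that fell in MC26.

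SDF2L1 showed the largest change of the 10. Its protein forms a complex with ER-resident J proteins and assists HSPA5. The gene lies on the plus strand at chr22:21642302-21644299 (GRCh38), and its transcript of 825 bases was the shortest of the 10. It stood at 17.4, 11.2 and 20.4 CPM in CT, at 27.0, 24.5 and 25.7 CPM in MC26 and at 33.3, 36.0 and 31.4 CPM in M1B26. CT replicate 2, the library with the lowest total, was the lowest of the CT libraries, and the 3 lines did not overlap. SDF2L1 was 1.55-fold higher in MC26 than in CT (log2 0.63, SE 0.16, adjusted p = 0.0106 by edgeR). It was 2.02-fold higher in M1B26 (log2 1.01, SE 0.16, adjusted p = 0.000449 by edgeR). This was the only call with a change of at least 2-fold among the 10 genes in any comparison. Over all tested genes such calls made up 10.8% in MC26 against CT, 11.7% in M1B26 against CT and 8.17% in M1B26 against MC26. Without CT replicate 2 the log2 changes were 0.45 in MC26 and 0.82 in M1B26, and both passed.

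DNAJB9 rose in both lines. It is an ER-resident J protein that works with HSPA5, and it lies on the plus strand at chr7:108569867-108574850. Its levels were 9.09, 9.82 and 9.13 CPM in CT, 13.1, 12.2 and 12.7 CPM in MC26 and 12.9, 14.6 and 13.7 CPM in M1B26. Every library of the derived lines was above every CT library. DNAJB9 was 1.36-fold higher in MC26 than in CT (log2 0.44, SE 0.09, adjusted p = 0.00210 by edgeR) and 1.47-fold higher in M1B26 (log2 0.56, SE 0.08, adjusted p = 0.000310 by edgeR). The values rested on 225 to 749 counts per library.

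HSPA5 and HSP90B1, the major chaperones of the HSP70 and HSP90 families in the ER lumen, did not move alike. HSPA5 lies on the minus strand at chr9:125234853-125241382. It stood at 661, 701 and 663 CPM in CT, at 822, 839.8 and 784 CPM in MC26 and at 783, 814 and 706 CPM in M1B26. All libraries of both derived lines were above the CT libraries, with M1B26 replicate 3 nearest to them. HSPA5 was 1.21-fold higher in MC26 than in CT (log2 0.27, SE 0.07, adjusted p = 0.00943 by edgeR). The change in M1B26 was 1.14-fold (log2 0.18, SE 0.07, adjusted p = 0.0433 by edgeR). In M1B26 this call was lost under 10 of 19 alternatives, among them 5 of the 9 that left out a library (CT replicates 1 and 3, MC26 replicate 2, M1B26 replicates 1 and 2), and with total counts alone the log2 change was 0.09 (adjusted p = 0.319 by edgeR, the highest among the alternatives, with a lowest of 0.00698).

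HSP90B1 (GRP94) lies on the plus strand at chr12:103930107-103953931. Its levels were 848, 996 and 848 CPM in CT, 853, 959.5 and 863 CPM in MC26 and 711, 823 and 721 CPM in M1B26. CT and MC26 overlapped throughout, whereas each M1B26 library was below each library of the other lines. The log2 fold change in MC26 was -0.0083 (SE 0.09, adjusted p = 0.952 by edgeR), and the sign turned without CT replicate 2 and without MC26 replicate 1 or 3. In M1B26, HSP90B1 fell by 0.26 on the log2 scale (SE 0.09, adjusted p = 0.0318 by edgeR). That call was lost without CT replicate 2 (log2 -0.18, adjusted p = 0.0972 by edgeR) and without M1B26 replicate 1 (log2 -0.21, adjusted p = 0.122 by edgeR) or replicate 3 (log2 -0.22, adjusted p = 0.101 by edgeR). The gene shares 6.15% of its exonic bases with UQCC6 on the opposite strand.

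CALR (calreticulin), a calcium-binding chaperone of glycoproteins, lies on the plus strand at chr19:12938578-12944489. It stood at 643, 614 and 682 CPM in CT, at 872, 848 and 766 CPM in MC26 and at 824, 831 and 748 CPM in M1B26. No library of a derived line overlapped with CT. CALR was 1.28-fold higher in MC26 than in CT (log2 0.36, SE 0.07, adjusted p = 0.00321 by edgeR) and 1.24-fold higher in M1B26 (log2 0.31, SE 0.07, adjusted p = 0.00542 by edgeR). With an offset for transcript length and GC content the log2 change in M1B26 was 0.18, still past the threshold. CALR shares 9.64% of its exonic bases with a long non-coding gene on the opposite strand, which was not among the symbols counted.

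PDIA4 and PDIA6 belong to the protein disulfide isomerases, which form and rearrange disulfide bonds. PDIA4 lies on the minus strand at chr7:149003062-149028662. It stood at 246, 242 and 258 CPM in CT, at 302, 308 and 308 CPM in MC26 and at 302, 299 and 279 CPM in M1B26, so that both derived lines were above CT. PDIA4 was 1.23-fold higher in MC26 than in CT (log2 0.30, SE 0.06, adjusted p = 0.00264 by edgeR) and 1.18-fold higher in M1B26 (log2 0.24, SE 0.06, adjusted p = 0.00678 by edgeR). The call in M1B26 was lost with total counts alone (log2 0.14, adjusted p = 0.0616 by edgeR), and under no other alternative.

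PDIA6 lies on the minus strand at chr2:10783391-10837977. Its levels were 312, 331 and 314 CPM in CT, 303, 325 and 330.1 CPM in MC26 and 372, 395 and 366 CPM in M1B26. CT and MC26 overlapped, and all M1B26 libraries were above both. The log2 fold change in MC26 was 0.0029 (SE 0.06, adjusted p = 0.977 by edgeR), with a sign that depended on the scaling and on single libraries. PDIA6 was 1.18-fold higher in M1B26 than in CT (log2 0.24, SE 0.06, adjusted p = 0.00818 by edgeR). With total counts alone this call was lost (log2 0.15, adjusted p = 0.0955 by edgeR), and with the offset for length and GC content the log2 change was 0.16. PDIA6 shares 25.2% of its exonic bases with ATP6V1C2 on the opposite strand, a gene with at most 9 counts in a library.

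Of the transcription factors, XBP1 lies on the minus strand at chr22:28794555-28800597. It stood at 68.3, 66.4 and 66.4 CPM in CT, at 75.3, 71.4 and 77.1 CPM in MC26 and at 79.6, 84.7 and 89.7 CPM in M1B26. The 3 lines did not overlap, with CT lowest and M1B26 highest. The log2 fold change in MC26 was 0.15 (SE 0.06, adjusted p = 0.0822 by edgeR) and did not pass. XBP1 was 1.26-fold higher in M1B26 than in CT (log2 0.34, SE 0.06, adjusted p = 0.00145 by edgeR), and 0.22 on the log2 scale with the offset for length and GC content, which also passed.

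ATF6 lies on the plus strand at chr1:161766298-161977574, with the longest transcript of the 10 at 7470 bases. Its levels were 86.4, 98.1 and 86.1 CPM in CT, 81.3, 87.8 and 90.7 CPM in MC26 and 79.2, 73.9 and 82.5 CPM in M1B26. CT replicate 2 was highest, and M1B26 overlapped with MC26 but not with CT. The log2 fold change in MC26 was -0.06 (SE 0.08, adjusted p = 0.583 by edgeR). ATF6 fell by 0.20 on the log2 scale in M1B26 (SE 0.08, adjusted p = 0.0493 by edgeR). This call was lost under 14 of 19 alternatives, 8 of them leaving out a library (all but CT replicate 3), and with the offset for length and GC content the log2 change was -0.0047 (adjusted p = 0.949 by edgeR, in a range of 0.0144 to 0.952 over the alternatives).

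HERPUD1 stood apart from the chaperones. It encodes an ER membrane protein of the degradation machinery that removes misfolded proteins, and is a target of the PERK and ATF6 branches. The gene lies on the plus strand at chr16:56932142-56944864. It stood at 41.7, 42.2 and 42.9 CPM in CT, at 31.4, 32.6 and 34.0 CPM in MC26 and at 36.3, 42.4 and 44.7 CPM in M1B26. Every MC26 library was below every other library, while M1B26 overlapped with CT. HERPUD1 fell by 0.37 on the log2 scale in MC26 (SE 0.08, adjusted p = 0.00428 by edgeR). The log2 fold change in M1B26 was -0.04 (SE 0.08, adjusted p = 0.709 by edgeR).

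The derived lines were then compared with each other, which sets the line from BMPR1B-sorted cells against that from unsorted cells. M1B26 was also expanded from soft-agar clones, and the authors describe a faster transformation of the sorted cells. Sorting, cloning and length of exposure cannot be told apart here. In M1B26 against MC26, 4 of the 10 genes passed, 3 higher and 1 lower, where 39.5% of all tested genes passed, 21.2% higher and 18.4% lower. The median log2 fold change of the 10 genes was 0.03, against -0.0014 over all tested genes, and 5 of the 10 did not overlap between the lines, as did 53.5% of all genes. HERPUD1 was higher in M1B26 than in MC26 (log2 0.33, SE 0.08, adjusted p = 0.00792 by edgeR), as was PDIA6 (log2 0.24, SE 0.06, adjusted p = 0.0114 by edgeR). XBP1 was also higher (log2 0.18, SE 0.06, adjusted p = 0.0431 by edgeR), a call lost under 15 of 19 alternatives, including 7 that left out a library (all but CT replicate 2 and M1B26 replicate 1), with adjusted p between 0.0338 and 0.161. HSP90B1 fell by 0.25 on the log2 scale (SE 0.09, adjusted p = 0.0436 by edgeR), a call lost without CT replicate 1, MC26 replicate 1 or 2, or M1B26 replicate 1 or 3 (adjusted p up to 0.157 by edgeR, and 0.00975 at the lowest).

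SDF2L1 did not pass between the derived lines (log2 0.38, SE 0.16, adjusted p = 0.0786 by edgeR), although their libraries did not overlap. It passed in 4 of 19 alternatives, with no filter, with the 6 compared libraries only, and without CT replicate 2 or 3, and its adjusted p ranged from 0.00484 to 0.243. Neither did HSPA5, with a log2 value of -0.09 (adjusted p = 0.337 by edgeR), CALR, with -0.05 (adjusted p = 0.621), PDIA4, with -0.06 (adjusted p = 0.453), DNAJB9, with 0.12 (adjusted p = 0.294), or ATF6, with -0.14 (adjusted p = 0.162).

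Ratios between 2 of the genes within a library do not depend on the scaling between libraries. The pairs given here were chosen after their values were seen, and no test was run on them. The ratio of HSP90B1 to HSPA5, in counts per kb, was 1.87 ± 0.114 (SD, n = 3) in CT, 1.54 ± 0.0740 in MC26 and 1.38 ± 0.0880 in M1B26. The lines did not overlap in it, with at least 1.80 in each CT library, 1.46 to 1.61 in MC26 and 1.28 to 1.44 in M1B26. PDIA6 to PDIA4 stood at 1.56 ± 0.0940 in CT and 1.56 ± 0.0610 in M1B26, and was lower in all MC26 libraries, at 1.27 ± 0.0410. HERPUD1 to HSPA5 was also lowest in MC26, at 0.0552, against 0.0860 in CT and 0.0740 in M1B26. For both of these ratios the CT and M1B26 libraries overlapped. The ratio of SDF2L1 to HSPA5 was 0.116 in CT, with a range of 0.0757 to 0.146, against 0.150 in MC26 and 0.208 in M1B26. CT and MC26 overlapped in it, with a lowest value of 0.139 in MC26. The ratio of CALR to HSPA5 overlapped between all of the lines, at 1.98 ± 0.160 in CT, 2.10 ± 0.0866 in MC26 and 2.15 ± 0.0424 in M1B26.

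**Figure D4:**
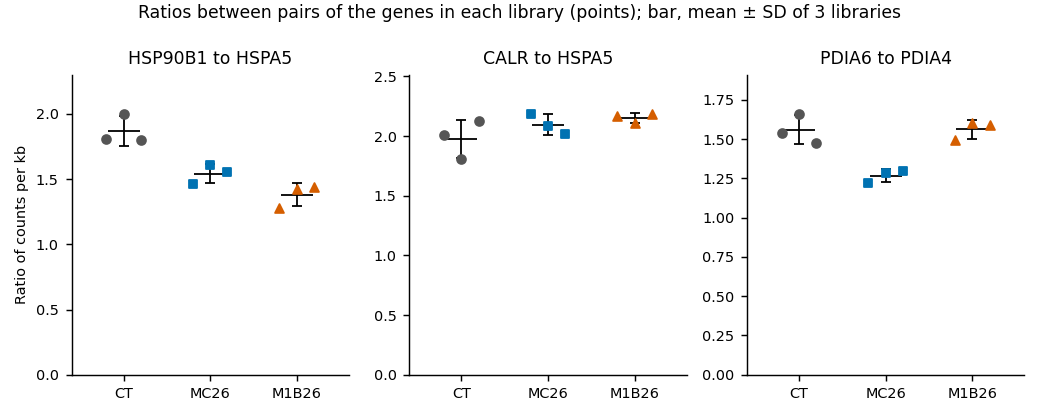
Ratios between pairs of the genes in counts per kb of transcript (y axis) in each library, grouped by line (x axis), with points for libraries and bars for the mean ± SD of 3 cultures. HSP90B1 to HSPA5 is highest in CT and lowest in M1B26, and PDIA6 to PDIA4 is lowest in MC26.

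The other genes of ER protein handling were followed in 6 lists with 161 genes in all, of which 159 were tested. In MC26 against CT, 40 were higher and 16 lower, which is 35.2% called beside 38.7% of all tested genes. In M1B26 against CT, 48 were higher and 22 lower, 44.03% called beside 48.9%. In M1B26 against MC26, 35 were higher and 26 lower, 38.4% called beside 39.5%. The counts depended on single libraries. In MC26 against CT the 56 calls fell to 32 without CT replicate 1, 35 without MC26 replicate 1 and 36 without MC26 replicate 2, and in M1B26 against MC26 the 61 calls fell to 40 without MC26 replicate 1 and 31 without MC26 replicate 2.

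Among 40 further ER chaperones and folding enzymes, 10 were higher and 5 lower in MC26 than in CT (median log2 0.09). In M1B26 against CT, 9 were higher and 7 lower (median 0.02). FKBP9, a peptidyl-prolyl isomerase of the ER, rose in MC26 from 93.6 to 156 CPM (log2 0.73, SE 0.06, adjusted p = 4.69e-06 by edgeR) and was lower in M1B26 than in MC26 (log2 -0.86, SE 0.06, adjusted p = 2.78e-06). FKBP7, a related isomerase, fell in both lines (log2 -0.77 in MC26 and -0.86 in M1B26, adjusted p = 0.00204 and 0.000715 by edgeR). SDF2, a paralogue of SDF2L1, was higher in M1B26 than in CT (log2 0.73, SE 0.07, adjusted p = 2.01e-05 by edgeR). Between the derived lines, 7 of the list were higher and 11 lower in M1B26 (median log2 -0.06). The shares called were 37.5%, 40% and 45%, beside 38.7%, 48.9% and 39.5% of all tested genes. The calls of this list fell from 15 to 9 in MC26 against CT without CT replicate 1, and from 18 to 10 between the derived lines without MC26 replicate 2.

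In ER-associated degradation, the disposal route to which HERPUD1 belongs, 11 of 27 tested genes were higher and 2 lower in MC26 than in CT (median log2 0.08), and 9 were higher and 3 lower in M1B26 (median 0.09). EDEM1, a lectin that steers misfolded glycoproteins to disposal, rose in MC26 from 63.2 to 96.9 CPM (log2 0.62, SE 0.07, adjusted p = 4.03e-05 by edgeR). It was also called higher in M1B26 than in CT, at 104.1 CPM. RNF5, a ubiquitin ligase, fell in MC26 by 0.23 on the log2 scale (adjusted p = 0.0294 by edgeR), a call lost under 8 of 19 alternatives. DERL2, a component of the export channel, was the most raised in M1B26 against CT (log2 0.81, SE 0.07, adjusted p = 5.07e-06 by edgeR), and EDEM3 fell there by 0.38 (SE 0.07, adjusted p = 0.00152). DERL2 was also called higher in MC26, at 30.93 CPM against 25.78 CPM in CT. Between the derived lines 4 were higher and 4 lower in M1B26, with UBE2G2, a ubiquitin-conjugating enzyme, at log2 -0.50 (SE 0.09, adjusted p = 0.00110 by edgeR). UBE2G2 had a mean of 98.12 CPM for CT. It was called higher than this in MC26 (130.3 CPM), but M1B26 (92.12 CPM) was not called against CT. In the order of these comparisons, 48.1%, 44.4% and 29.6% of the list were called, beside 38.7%, 48.9% and 39.5% of all tested genes. The 8 calls between the derived lines became 16 without CT replicate 2, 5 without MC26 replicate 1, and 4 without MC26 replicate 2, M1B26 replicate 1 or M1B26 replicate 2.

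Among 14 tested sensors and transcription factors, 4 were higher and 2 lower in MC26 than in CT, and 3 were higher and 5 lower in M1B26, so that 42.9% and 57.1% were called, beside 38.7% and 48.9% of all tested genes. Between the derived lines 21.4% were called, beside 39.5%. In M1B26 against CT, ERN1, CREB3L4 and RTCB were called higher. EIF2AK3, which encodes PERK, was called lower there, as were MBTPS1, MBTPS2, NFYB and YY1. The 6 calls in MC26 fell to between 1 and 4 without any 1 library, with 1 left without CT replicate 1 or MC26 replicate 1, and the 8 in M1B26 fell to 5 without CT replicate 1, 3 without M1B26 replicate 1 and 4 without M1B26 replicate 2. ERN1, which encodes the sensor IRE1, was highest in M1B26 at 27.4 CPM, against 16.1 CPM for CT and 20.2 CPM for MC26, with a log2 change of 0.77 against CT (edgeR adjusted p = 0.000112, SE 0.10) and of 0.44 against MC26 (edgeR adjusted p = 0.00514). NFYB, a subunit of NF-Y, was lower than in CT in M1B26, with a log2 value of -0.46 (SE 0.10, edgeR adjusted p = 0.00289), and in MC26, with -0.28 (edgeR adjusted p = 0.0426), where in MC26 the call was lost under 9 of 19 alternatives. WFS1, an ER membrane protein, was higher in MC26 (log2 0.38, SE 0.14, adjusted p = 0.0448 by edgeR), which was lost under 11 of 19. NFYA, another NF-Y subunit, was lower in M1B26 than in MC26 (log2 -0.36, SE 0.06, adjusted p = 0.00101 by edgeR). Beside CT (52.1 CPM), NFYA passed as higher in MC26 (59.93 CPM), while the lower level of M1B26 (46.72 CPM) did not pass.

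In the PERK and ATF4 branch of 16 genes, 5 were higher and 2 lower in MC26 than in CT (median log2 0.10), and 7 were higher and 1 lower in M1B26 (median 0.14). The shares called were 43.75% and 50%, beside 38.7% and 48.9% of all tested genes, and 43.75% between the derived lines, beside 39.5%. PPP1R15A (GADD34), which reverses the translation block, rose in MC26 from 13.9 to 20.6 CPM (log2 0.57, SE 0.12, adjusted p = 0.00320 by edgeR) and was lower in M1B26 than in MC26 (log2 -0.53, adjusted p = 0.00475). Its constitutive relative PPP1R15B fell in M1B26 (log2 -0.42, SE 0.07, adjusted p = 0.000590 by edgeR). SESN2, a stress-induced regulator of growth signalling, was higher in M1B26 (log2 0.69, SE 0.12, adjusted p = 0.000588 by edgeR). It was also called higher in MC26, at 27.29 CPM against 20.19 CPM in CT. ASNS, the asparagine synthetase, was higher in M1B26 than in MC26 (log2 0.55, SE 0.11, adjusted p = 0.00259 by edgeR). Here MC26 was the line that differed from CT. ASNS was called lower there (22.15 CPM against 33.28 CPM for CT), whereas M1B26 (32.45 CPM) was not called against CT. BBC3, a pro-apoptotic gene, fell in MC26 (log2 -1.01, SE 0.28, adjusted p = 0.0140 by edgeR), at 7.20 CPM in CT and 3.61 in MC26 with overlapping libraries. That call was lost under 3 of 19 alternatives, among them without CT replicate 3 (log2 -0.85) and without MC26 replicate 2 (log2 -0.92), with an edgeR adjusted p of up to 0.0565.

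Among 46 genes of ER translocation and early secretion, 8 were higher and 5 lower in MC26 than in CT (median log2 0.04), and 17 were higher and 4 lower in M1B26 (median 0.12). Between the derived lines, 16 were higher and 6 lower in M1B26 (median 0.10). The shares called were 28.3%, 45.7% and 47.8% in that order, beside 38.7%, 48.9% and 39.5% of all tested genes. The 13 calls in MC26 against CT fell to 5 without CT replicate 1 or MC26 replicate 2 and to 6 without MC26 replicate 1, and the 22 between the derived lines fell to 12 without MC26 replicate 1 or M1B26 replicate 2 and to 9 without MC26 replicate 2. SEC61G, a subunit of the translocation channel, was higher in MC26 (log2 0.34, SE 0.09, adjusted p = 0.0138 by edgeR) and in M1B26 (log2 0.70, SE 0.09, adjusted p = 0.000123) than in CT. The call in MC26 was lost under 4 of 19 alternatives, among them total counts alone (log2 0.26), without CT replicate 1 (log2 0.33) and without MC26 replicate 2 (log2 0.30), with an adjusted p of up to 0.0544 by edgeR, and with the offset for length and GC content the log2 changes were 0.20 in MC26 and 0.37 in M1B26, both past the threshold. KDELR3, a receptor that returns ER proteins from the Golgi, was lower in both (log2 -0.81 and -0.59, adjusted p = 0.000403 and 0.00185 by edgeR). OSTC, a subunit of the oligosaccharyltransferase, was higher in M1B26 than in MC26 (log2 0.54, SE 0.07, adjusted p = 0.000296 by edgeR), and SEC61A1, the pore of the channel, was lower (log2 -0.29, SE 0.06, adjusted p = 0.00317). Against CT (435.6 CPM), SEC61A1 was called higher in MC26 (527.8 CPM) and was not called in M1B26 (432.5 CPM).

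Genes on chromosome 17 were higher in M1B26 as a whole, and SDF2, DERL2 and ERN1 lie there. Of 843 tested genes on chromosome 17, M1B26 had 543 above and 56 below CT, with a median log2 fold change of 0.48. All 7 genes of the lists on this chromosome (DERL2, ERN1, FKBP10, NPLOC4, P4HB, SDF2 and SRP68) were higher, with a median of 0.71. Of the other 152 genes of the lists, 41 were higher and 22 lower (median 0.04). Against MC26, M1B26 had 565 of the 843 above and 22 below (median 0.48), and 6 of the 7 were higher, beside 29 higher and 26 lower of the other 152. Its part in the values of the 7 was not tested, and none of the 10 genes named at the start lies on chromosome 17.

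**Figure D5:**
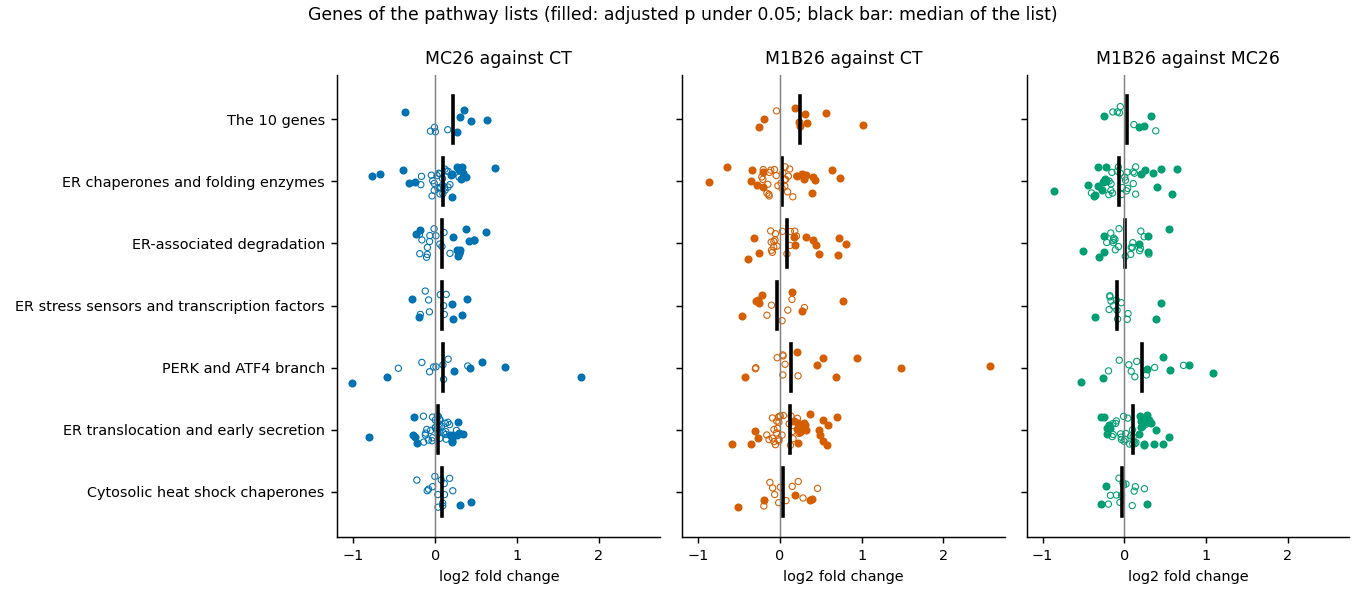
Log2 fold change (x axis) of each tested gene among the 10 genes and in each of the 6 lists (y axis) in the 3 comparisons, with filled points for an adjusted p under 0.05, open points for the rest and a black bar at the median of each list. The median of the 10 genes is at 0.21 in MC26 and 0.24 in M1B26 against CT, to the right of every list's median.

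Genes whose pattern over the 9 libraries was most like that of HSPA5 or XBP1 were found by the root mean square difference in log2 CPM, with each gene centred on its own mean, over 10634 genes. For HSPA5 these were KNOP1, ZPR1, SMIM10L1, CXorf40B and EIF2B1, with differences of 0.04 to 0.05 where the median gene had 0.22. For XBP1 they were PRPS2, ZNF207, SSR2, ATG7 and PGK1, with 0.04 to 0.05 against a median of 0.23. Among the 10 genes themselves, PDIA4 was nearest to HSPA5 (0.06), PDIA6 was nearest to XBP1 (0.10), and SDF2L1 was farthest from HSP90B1 (0.62 on the log2 scale). These are descriptions over libraries that share the scaling and the lines.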

How the data were processed

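Poly-A RNA of 9 MCF10A cultures was sequenced in paired-end mode. Groups and replicate numbers were taken from the sample titles. The authors deposited raw counts for each symbol and aligned the reads with STAR 2.7.3a to GRCh38. Salmon 1.1.0 was also named, but the table holds whole numbers and non-coding genes. How reads were counted (program, strand, reads with more than 1 alignment) is not given in the sources used here, so reads of overlapping genes on opposite strands may not be separated.

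Genes were kept with filterByExpr at a minimum count of 10 (15717 genes), scaled by TMM and tested with edgeR 4.0.16 (R 4.3.3) glmQLFit and glmQLFTest, with the 3 lines as groups over the 9 libraries. P-values were adjusted by Benjamini-Hochberg over all tested genes and a gene was called at an adjusted p under 0.05. SE is the absolute log2 fold change divided by the square root of F. No 2 libraries agreed within sampling noise. The biological coefficient of variation was 10.4%. CPM used TMM-scaled totals. Positions and lengths came from GENCODE on GRCh38, as the MANE Select transcript or, for XBP1, the longest one. Of the planned marker genes, 1 is not reported here. The script was tested on simulated data.

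The 10 genes and the 6 lists were chosen with earlier results of these data known. From each list and comparison, the text names the called genes with the highest positive and the lowest negative log2 fold change among those with a mean of at least 5 CPM, and ATP6V1C2 and UQCC6 as neighbours of the 10. For the sensors and transcription factors, all genes called in M1B26 against CT are also named. Alternatives were DESeq2 1.42.0, other scalings and filters, the 6 compared libraries only, a replicate block, an offset for length and GC content (a spline with 5 degrees of freedom for each, over 13830 genes), an adjusted p under 0.01 and leaving out each library.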

Additional observations from a re-analysis of the deposited data

Results flagged for a closer look

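Among the 10 genes, 4 differed between the derived lines themselves, in a direct test of M1B26 against MC26, which is the difference of their changes from the shared CT libraries. HERPUD1 was higher in M1B26 by a log2 value of 0.33 (adjusted p = 0.00792 by edgeR), with 3 of 3 libraries above those of MC26. PDIA6 was higher by 0.24 (adjusted p = 0.0114 by edgeR) and XBP1 by 0.18 (adjusted p = 0.0431 by edgeR), each in 3 of 3 libraries. HSP90B1 differed by -0.25 (adjusted p = 0.0436 by edgeR), lower in 3 of 3 libraries. The calls of XBP1 and HSP90B1 were lost without single libraries, as given with their values.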

How the results depend on the processing

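Calls of CALR, DNAJB9, PDIA4 and HSPA5 in MC26, of CALR, DNAJB9, SDF2L1 and XBP1 in M1B26 and of HERPUD1 in MC26 against CT and M1B26 against MC26 held under all 19 alternatives. Of 171 recomputed counts of calls, 156 stayed within 1.5 times. With an adjusted p under 0.01, the genes of the lists called were 24 in MC26 against CT, 45 in M1B26 against CT and 25 in M1B26 against MC26, all genes called were 3698 in MC26 against CT and 3685 in M1B26 against MC26, and 1 of the 10 genes was called in M1B26 against MC26. Leaving out 1 library, 6 of the 10 were called each time in MC26 against CT, 6 to 8 in M1B26 against CT and 2 to 5 in M1B26 against MC26 (2 without CT replicate 1, MC26 replicate 1, MC26 replicate 2 or M1B26 replicate 3), and the genes of the lists were 32 to 53 in MC26 against CT and 31 to 84 in M1B26 against MC26. Signs turned only for values that had not passed. PDIA6 in MC26 against CT was -0.0757 with total counts, -0.0104 with a mean of at least 50 counts, -0.0022 with 6 libraries, -0.0558 with the offset, -0.0568 with the offset and the block, and -0.0202 to 0.0433 without a library. Without a library, HSP90B1 in MC26 ranged from -0.058 to 0.0767, ATF6 in MC26 from -0.0903 to 0.0097, HERPUD1 in M1B26 from -0.1008 to 0.0482, and the median of the 10 in M1B26 against MC26 from -8e-04 (without M1B26 replicate 2) to 0.0659. ATF6 in M1B26 against MC26 was 0.0056 with the offset and 0.0068 with the offset and the block. The cause of these turns was not tested. In depth, a count of 0, as for the markers not detected, allowed up to 0.0366 CPM in CT replicate 3 and 0.131 CPM in CT replicate 2, for counting error only.

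Replicate numbers were shared between the lines, and the titles do not say whether they pair the cultures. Of same-number pairs, 3 of 9 had a correlation of deviations over 0.1 (range -0.159 to 0.279, median 0.041). Of different-number pairs, 4 of 18 did (range -0.258 to 0.256, median -0.039). A library's best match in another line had its own number in 6 of 18 cases. With 3 libraries per line, these values cannot decide whether a batch followed the numbers. With a replicate block, 6 of the 10 genes and 5879 of all genes were called in MC26 against CT, 8 and 7513 in M1B26 against CT, and 3 and 6009 between the derived lines.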

Other observations

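Cytosolic heat shock genes, which serve protein folding outside the ER, had few calls. Of 16 tested, 2 were higher in MC26 than in CT (median log2 0.08), 3 were above and 2 below CT in M1B26 (median 0.04), and 1 was higher and 2 lower in M1B26 than in MC26 (median -0.03), which is 12.5%, 31.3% and 18.8% called beside 38.7%, 48.9% and 39.5% of all tested genes. The 2 calls in MC26 against CT were 1 in most fits without 1 library, the 5 in M1B26 against CT were 3 without CT replicate 1, and the 3 between the derived lines were 0 without MC26 replicate 1, MC26 replicate 2 or M1B26 replicate 1 and 1 without M1B26 replicate 3. BAG3, a cochaperone of HSP70, rose in MC26 (log2 0.44, SE 0.11, adjusted p = 0.00777 by edgeR) and was also called higher in M1B26 than in CT. HSF2, a heat shock factor, was higher in M1B26 than in CT (log2 0.39, SE 0.09, adjusted p = 0.00351 by edgeR), and DNAJA1, a J protein of the cytosol, was lower (log2 -0.51, SE 0.09, adjusted p = 0.00119 by edgeR). Between the derived lines, HSF2 stood at 0.28 (adjusted p = 0.0262 by edgeR) and DNAJA1 at -0.28 (adjusted p = 0.0338 by edgeR), and each of these 2 calls was lost under 5 of 19 alternatives.

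Beyond the 10 genes, ERSE or ERSE-II was found in the windows of 37 other genes, of which 23 were tested. In MC26 against CT 3 of them were higher and 2 lower, which is 21.7% called beside 38.7% of all tested genes. In M1B26 against CT 3 were higher and 3 lower, 26.1% beside 48.9%. In M1B26 against MC26 4 were higher and 4 lower, 34.8% beside 39.5%. Those in the lists were CANX, CRELD2, ERO1B and HYOU1. CANX, a membrane-bound relative of CALR, fell in M1B26 against CT (log2 -0.20, SE 0.08, adjusted p = 0.0480 by edgeR), and HYOU1, an ER chaperone of the HSP110 type, was lower in M1B26 than in MC26 (log2 -0.22, SE 0.07, adjusted p = 0.0301 by edgeR). CRELD2 and ERO1B passed in no comparison.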
